A study of Mus musculus with 4 samples.

Results

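Insulin granules dock at the beta cell membrane and fuse with it through a machinery shared with synapses, and 9 genes of that machinery are described here by their N6-methyladenosine (m6A) peaks in mouse islets. The genes are Pclo, Rims2, Unc13a, Rab3a, Rph3al, Sytl4, Syt7, Rapgef4 and Snap25. They were taken by name from the peak lists of 2 genotypes, and all 9 had a peak in at least 1 list, of 7491 genes with a peak in all. Islets of Wtap-βKO mice, in which Wtap is deleted in beta cells, were compared with islets of Wtapflox/flox mice, which carry the floxed gene and served as the control; all mice were 7 weeks old and ate normal chow. RNA was pooled from 19 Wtap-βKO mice and from 10 Wtapflox/flox mice, and each pool gave 1 library of antibody-bound fragments (IP) and 1 library of unselected fragments (input). The driver of the deletion in beta cells is not given in the sources used here, and the other islet cell types of the knockout pool are not stated to lack Wtap.

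With 1 pool per genotype there were no replicates, so no difference between the genotypes was tested, and every value below describes these pools. The knockout list held 9411 peaks and the control list 10964. Each peak carries the authors' own fold enrichment (IP over input in the peak) and q-value, given here as −log10 q, where a higher value is a stronger call. The medians over all peaks were a fold of 3.43 and a −log10 q of 4.63 in the knockout list, and 3.95 and 4.72 in the control list. Read depth is unknown. A gene without a listed peak had no call at the authors' threshold, which gives no m6A level for it, and a call depends on how much of the transcript was sequenced as well as on m6A. In whole islets, fewer cells of a type and less RNA per cell cannot be told apart. Wtap itself had 1 peak in the knockout list, with a fold of 3.37, and 2 in the control list, with folds of 3.16 and 23.2, which does not check the deletion. Of 8 beta cell markers, 7 had a knockout peak and 6 a control peak, and Iapp had none in either list. Markers of the other cell types with a peak, in the knockout and then in the control, were 4 and 3 of 5 for alpha, 3 and 1 of 3 for delta, 1 and 1 of 1 for PP and 2 and 2 of 5 for acinar cells. They were 3 and 0 of 4 for ductal, 4 and 5 of 5 for endothelial, 1 and 1 of 4 for stromal, 1 and 2 of 4 for immune, and 0 and 1 of 4 for neuronal and Schwann cells. A peak shows that a transcript was present and not its level, and the part of other cell types in the results below was not tested.

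WTAP is a subunit of the methyltransferase complex that writes m6A on mRNA. A marked transcript can be read by proteins that alter its splicing, stability or translation. In beta cells, raised calcium drives fusion of docked and primed granules, and cAMP from incretin receptors potentiates it. Active zone scaffolds and priming factors hold granules ready, Rab3 and Rab27 proteins with their effectors tether them to the membrane, synaptotagmins sense calcium, and SNARE proteins carry out the fusion.

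Pclo, Rims2, Syt7, Rapgef4 and Snap25, 5 of the 9 (55.6%), had peaks in both lists, against 55.2% of all genes with a peak. Each of the 5 had at least 1 place where a knockout and a control peak overlapped. Over all genes with peaks in both lists, 86.8% had such a pair. Rph3al and Sytl4 were called in the knockout alone, and they were 2 of the 7 members with a knockout peak (28.6%, exact 95% interval 3.67 to 71.0), against 23.1% over all genes with a knockout peak. Rab3a and Unc13a were called in the control alone. They were 2 of the 7 members with a control peak (28.6%, interval 3.67 to 71.0), against 33.8% over all genes. All 3 shares lay near those of all genes, and the intervals, which cover counting error only, were wide. The members unique to either list had 1 peak each, and the 5 genes shared by the lists had from 1 to 12.

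**Figure D1:**
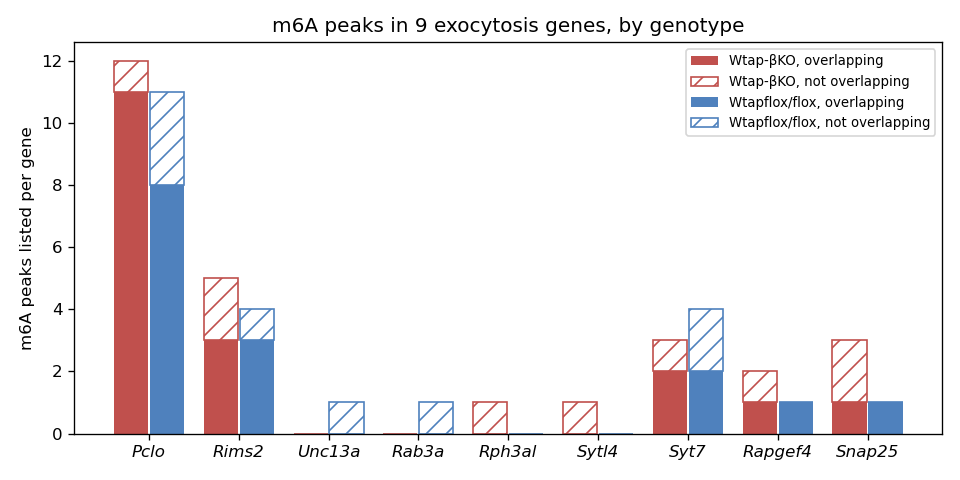
Number of listed m6A peaks per gene (y axis) for the 9 genes (x axis) in Wtap-βKO islets (red) and Wtapflox/flox islets (blue). The filled part of a bar counts peaks that overlap a peak of the other genotype, which is 11 of 12 and 8 of 11 for Pclo and 0 of 1 for Unc13a, Rab3a, Rph3al and Sytl4.

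**Figure D2:**
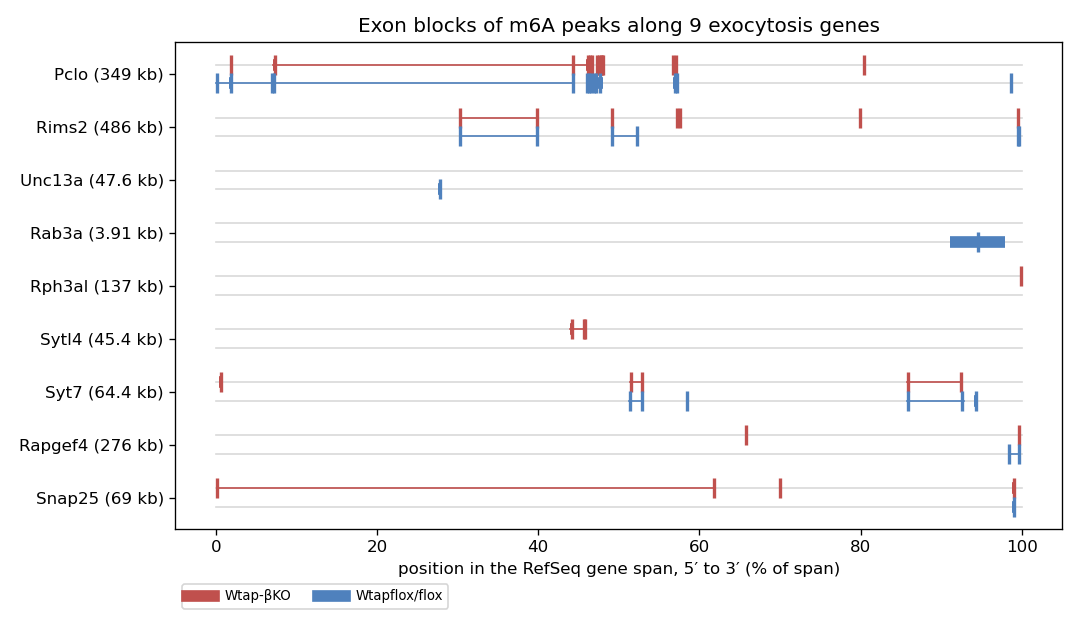
Exon blocks of each peak as a percentage of the RefSeq gene span, from the 5′ to the 3′ end, with Wtap-βKO peaks above Wtapflox/flox peaks. Thin lines join blocks of 1 peak across introns, and short blocks are drawn with a tick so that they can be seen. Snap25, Rapgef4 and Rims2 share a site near the 3′ end, and the blocks of Pclo cluster near the middle of the gene.

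Pclo carried more of the peaks than any other member, 12 of 27 in the knockout and 11 of 23 in the control. Its protein, piccolo, is a large scaffold of the presynaptic active zone that also acts in beta cells as a calcium-sensing partner of the cAMP machinery. The gene (ENSMUSG00000061601) spans 349 kb on the plus strand of chromosome 5, at chr5:14514906-14863465 of GRCm38. In the knockout list 5 named genes had more peaks than Pclo, and in the control list 8 did. Knockout peaks had folds between 2.02 and 9.53 with a median of 3.12, and control peaks between 2.16 and 11.6 with a median of 3.35. The −log10 q ran between 2.94 and 37.7 in the knockout, and between 6.90 and 50.9 in the control. The strongest calls thus stood far inside the upper tail of each list, above 98.7% of knockout peaks and above 98.9% of control peaks.

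Most of the Pclo length called in the knockout was also called in the control, and the mean peak was shorter in the knockout. Exonic peak length summed to 8407 nt in the knockout, with a mean of 701 nt per peak, and to 12033 nt in the control, with a mean of 1094 nt. The means were 276 and 303 nt over all peaks, and 276 and 370 nt for the other members, so they too were shorter in the knockout. The knockout sum for Pclo was 0.699 times the control sum, against 0.783 times over all peaks and 0.933 times for the other members together. Of the Pclo lengths, 7719 nt lay in both lists, which was 91.8% of the knockout length and 64.1% of the control length. The same shares over all peaks are not given here, so these are not set apart as a trait of Pclo. The longest Pclo peak was a knockout one, of 3359 nt, against 2070 nt in the control.

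A case of several knockout peaks on a longer control peak lay 165 kb from the 5′ end. There the control list held 1 peak of 2070 nt at chr5:14680240-14682309 with a fold of 2.87 and a −log10 q of 36.9. It was overlapped by 4 knockout peaks that together measured 1174 nt, of which 1114 nt lay in it. Their folds were 2.55, 3.22, 4.18 and 2.56 and their −log10 q 18.7, 4.96, 17.6 and 6.96. The folds of the 4 knockout peaks thus lay on both sides of the control fold, while each −log10 q was lower. The 1680 nt control peak at chr5:14712518-14714197 (fold 3.63, −log10 q 42.8) likewise met 2 knockout peaks, with folds of 3.11 and 2.02 and −log10 q of 19.6 and 3.88, which measured 751 nt together. The reverse arrangement also occurred. The knockout peak at chr5:14539842-14676642 joined 3 exon blocks into 3359 nt with a fold of 9.53 and a −log10 q of 37.7, and it overlapped 4 control peaks with folds of 3.35, 2.73, 3.08 and 3.79. Its overlap with the last of these was 1 nt.

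At the 5′ end, the control peak at chr5:14515008-14539423 began 102 nt from the gene start and had 3 exon blocks of 453, 1483 and 14 nt, with a fold of 11.6, a value that 110 control peaks carried. The knockout list had no block on the first of these and covered the second with a peak of 1320 nt at chr5:14520869-14522188 and a fold of 3.72. Pclo peaks without a counterpart were 1 in the knockout, at chr5:14795153-14795333 with a fold of 2.14, and 3 in the control. The control ones were at chr5:14678231-14678621 (fold 2.98), chr5:14714317-14714586 (2.16) and chr5:14858842-14859112 (4.84). The first of these 3 had a −log10 q of 34.3, above 97.5% of control peaks, so it was a strong call without a knockout counterpart. The last lay 4353 nt from the 3′ end of the gene.

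Some Pclo peaks lay over peaks listed for genes of the opposite strand. This held for 2 knockout and 4 control Pclo peaks, which overlapped minus-strand peaks of ENSMUSG00000097976 and ENSMUSG00000098233. They are among the peaks described above. The knockout peaks began at 14520869 and 14713987. The control peaks began at 14515008, 14539483, 14712518 and 14714317. At the 5′ stretch the minus-strand fold was 2.93 in the knockout and 2.73 in the control. Whether the authors' counting used strand is not given in the sources used here, and without strand the reads of the opposed genes cannot be told apart. Without those peaks, 15 of 25 knockout and 12 of 19 control member peaks overlapped the other list.

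**Figure D3:**
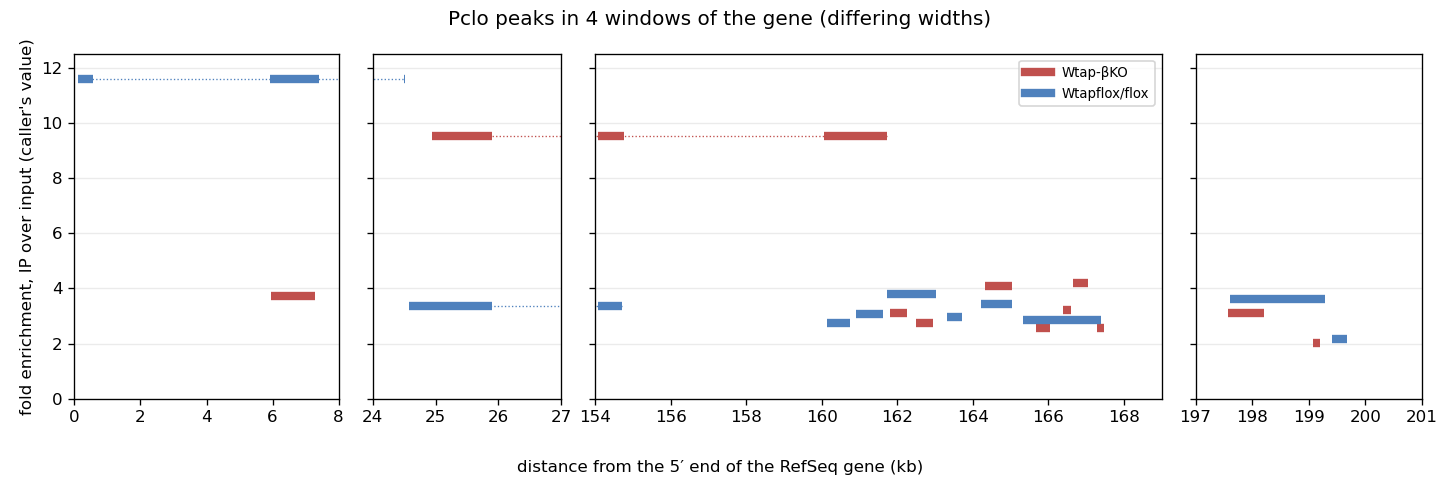
Pclo peaks of Wtap-βKO (red) and Wtapflox/flox (blue) islets in 4 windows of the gene, with distance from the 5′ end in kb on the x axis and the caller's fold enrichment on the y axis, and dotted lines joining blocks of 1 peak. Beyond 165 kb, in the third window, a control peak of 2070 nt faces 4 shorter knockout peaks, and the folds of most peaks in both genotypes lie near 3. The windows leave out a knockout peak 280 kb and a control peak 344 kb from the 5′ end, both without a counterpart.

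Rims2 had 5 peaks in the knockout, the next highest number, and 4 in the control, as many as Syt7. It encodes RIM2, an active zone protein that binds Rab3 and brings granules to calcium channels and priming factors. The gene (ENSMUSG00000037386) spans 486 kb on the plus strand, chr15:39198286-39684372. Its strongest knockout call, chr15:39437043-39437791, had a fold of 4.51 and a −log10 q of 22.6, and the control peak that began at the same base had a fold of 3.76 and a −log10 q of 14.4. A peak across an exon junction, with blocks near 39345364 and 39391843, had a fold of 3.84 and a −log10 q of 13.2 in the knockout and of 2.85 and 4.66 in the control. At both sites the knockout list thus gave the higher fold and the higher −log10 q.

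Near the 3′ end of Rims2, a knockout peak of 779 nt at chr15:39681588-39682366 (fold 4.40, −log10 q 8.42) overlapped a control peak of 839 nt at chr15:39681618-39682456 (fold 9.48, −log10 q 7.95) by 749 nt. The peaks were of similar q and covered nearly the same bases. The fold of 4.40 was carried by 40 knockout peaks and that of 9.48 by 72 control peaks, whereas other fold values within 0.5 of these had medians of 8 and 1 peaks each. Folds that recur in this way (at least 5 times the neighbouring values) were found for 5 of 27 knockout and 3 of 23 control member peaks, and such folds are given as deposited, with nothing read from their order. Knockout peaks without a counterpart lay at chr15:39476414-39478568 (fold 3.48) and chr15:39586606-39586726 (fold 11.4, a value carried by 59 peaks). The control peak without a counterpart was at chr15:39682725-39683055, with a fold of 3.48 and a −log10 q of 7.38, 1317 nt from the 3′ end. The knockout calls without a counterpart had −log10 q of 3.21 and 3.79, below the median of their list, and that of the control lay above its median.

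Unc13a had 1 peak, in the control list. It encodes a Munc13 priming protein, which opens syntaxin so that SNARE complexes can form. The gene (ENSMUSG00000034799) lies on the minus strand, chr8:71624125-71671774, and the peak of 181 nt at chr8:71658449-71658629 had a fold of 4.39. Its −log10 q of 3.15 was a weak call, above 28.3% of control peaks, and it lay 13.1 kb from the 5′ end of the gene.

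The Rab group split between the lists, and none of its 3 members was called in both. Over all genes the share called in both was 55.2%, and 3 genes are too few to set the group apart from it. Of 9 other Rab proteins and effectors with a peak, 5 were called in both (55.6%, interval 21.2 to 86.3). Rab3a, a small GTPase of secretory vesicles (ENSMUSG00000031840, chr8:70754703-70758608, plus strand), had a control peak of 268 nt at chr8:70758262-70758529. The fold was 5.94 and the −log10 q 10.1, above 77.6% of control peaks, and the peak ended 79 nt from the 3′ end of the gene. It was the strongest call by −log10 q among the 4 members with peaks in 1 list. Rph3al, which encodes the Rab effector Noc2 (ENSMUSG00000020847, chr11:75830992-75967614, minus strand), had a knockout peak of 120 nt at chr11:75831059-75831178, 67 nt from the 3′ end. Its fold was 2.41 and its −log10 q 5.54, above 58.4% of knockout peaks. Sytl4 encodes granuphilin, a Rab27 effector that docks insulin granules (ENSMUSG00000031255, chrX:133936385-133981821, minus strand). Its knockout peak at chrX:133960981-133961832 joined 3 exon blocks of 10, 110 and 150 nt, with a fold of 4.80 and a −log10 q of 5.43. The Rab3a and Rph3al peaks thus lay close to the 3′ end of their genes, whereas the Sytl4 peak lay 24.6 kb from its 3′ end.

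The calcium and cAMP sensors had peaks in both lists, in part at the same sites. Syt7, a high-affinity calcium sensor of insulin granule exocytosis (ENSMUSG00000024743, chr19:10388802-10453181, plus strand), had 3 knockout and 4 control peaks. A junction-spanning peak at chr19:10443998-10448392 had a fold of 2.83 and a −log10 q of 14.5 in the knockout, and its control counterpart at chr19:10444028-10448542 had a fold of 2.37 and a −log10 q of 8.36. At chr19:10421897-10422893 the knockout fold was 8.56 with a −log10 q of 3.27, and the control counterpart had a fold of 3.21 and a −log10 q of 6.28. The fold of 8.56 was a recurring value, carried by 49 knockout peaks. The knockout list alone held a peak 288 nt from the gene start, chr19:10389090-10389300, with a fold of 3.12 and a −log10 q of 8.70. The control list alone held peaks at chr19:10426358-10426538 (fold 2.11, −log10 q 2.53) and chr19:10449380-10449619 (fold 3.81, −log10 q 5.65). The unshared Syt7 peak of the knockout thus lay at the 5′ end. Those of the control lay at 58.5% and 94.3% of the gene span from the 5′ end. The first of these was a weak call, above 14.3% of control peaks.

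Rapgef4 encodes EPAC2, the cAMP-activated exchange factor for Rap1 through which incretins potentiate insulin release (ENSMUSG00000049044, chr2:71981215-72257474, plus strand). It had 2 knockout peaks and 1 control peak, and the shared site lay near the 3′ end. There the knockout peak at chr2:72256277-72256516 had a fold of 2.59 and a −log10 q of 7.26, and it fell wholly inside the control peak, which had a fold of 3.39 and a −log10 q of 16.5. The other knockout peak, chr2:72162933-72163112, had a fold of 8.56 and a −log10 q of 2.67, above 17.2% of knockout peaks. It was thus a weak call, and its fold was the recurring value also listed for Syt7.

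Snap25 encodes a SNARE of the plasma membrane that pairs with syntaxin and VAMP2 in granule fusion (ENSMUSG00000027273, chr2:136713439-136782428, plus strand). Its shared site was nearly identical in the lists. The knockout peak of 330 nt, chr2:136781620-136781949, had a fold of 1.80 and a −log10 q of 12.2, and the control peak of 360 nt began at the same base with a fold of 1.83 and a −log10 q of 9.79. Both folds were among the lowest of their lists, above 4.51% of knockout and 4.19% of control peaks, while both q-values were in the stronger part, above 86.7% and 76.7%. The knockout list held 2 further peaks, chr2:136713573-136756189 with blocks of 28 and 122 nt (fold 1.84, −log10 q 2.76) and chr2:136761708-136761828 (fold 2.81, −log10 q 3.55). These were weak calls by q, below the knockout median.

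Across the 9 genes, 18 of 27 knockout peaks (66.7%, interval 46.0 to 83.5) overlapped a control peak, against 61.6% of all knockout peaks. In the control list, 15 of 23 peaks (65.2%, interval 42.7 to 83.6) overlapped a knockout peak, against 51.6% of all control peaks. The members' intervals include the share of all peaks in each list. Pclo supplied many of these, and without it the shares were 7 of 15 in the knockout (46.7%) and 7 of 12 in the control (58.3%). Peaks that overlapped were stronger calls than those that did not. In the knockout list the median −log10 q was 12.7 for the 18 overlapping and 3.55 for the 9 other member peaks, and in the control list it was 19.9 for 15 and 7.14 for 8. The same order held over all peaks, with 6.40 and 3.22 in the knockout and 7.67 and 3.38 in the control. The ranges overlapped within each list, with overlapping member peaks as low as 3.27 and others as high as 8.70 in the knockout, and 4.66 and 34.3 in the control. Overlapping member peaks were also longer, with medians of 391 against 150 nt in the knockout and 810 against 269 nt in the control. Over all peaks these were 269 against 179 nt and 300 against 180 nt. The parts of length and of Pclo, which gave 11 of the 18 overlapping knockout peaks, were not tested.

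**Figure D4:**
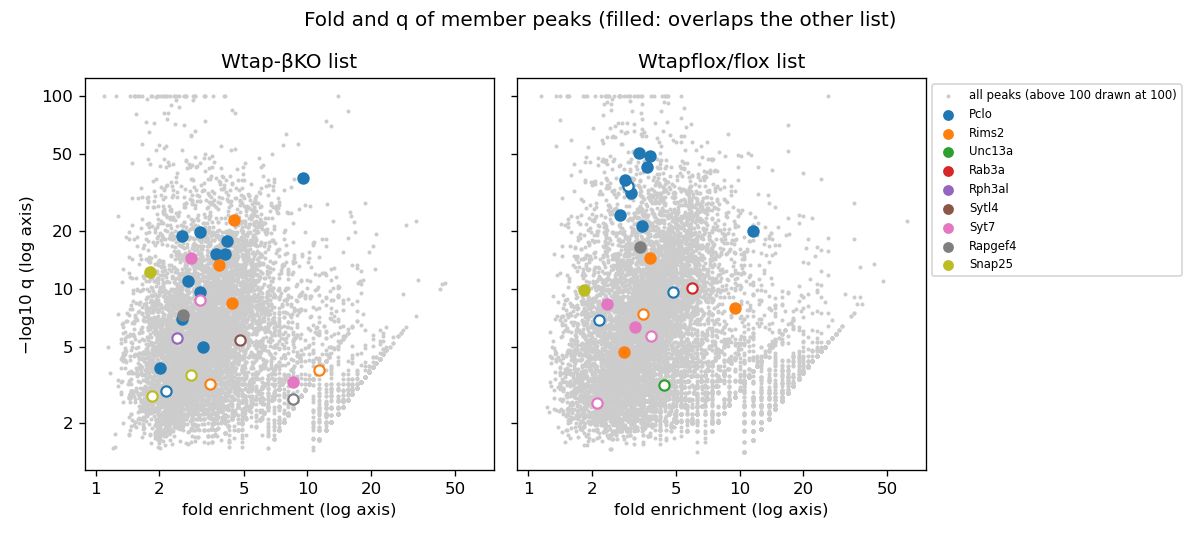
Fold enrichment (x, log axis) and −log10 q (y, log axis, values above 100 drawn at 100) of every peak (grey) and of member peaks (coloured by gene) in the Wtap-βKO list (left) and the Wtapflox/flox list (right). Filled symbols overlap a peak of the other genotype. Open symbols run from 2.67 to 8.70 on the y axis at left, with a median of 3.55. At right they run from 2.53 to 34.3, with a median of 7.14, and the highest is a Pclo peak.

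Member peaks that joined exons were 7 of 27 in the knockout (25.9%, interval 11.1 to 46.3), against 18.0% of all knockout peaks, and 7 of 23 in the control (30.4%, interval 13.2 to 52.9), against 11.7% of all control peaks. The control share of the members was thus the one whose interval lay above the share of all peaks, and its 7 peaks came from Pclo, Rims2, Syt7 and Rapgef4. Within 2000 bp of the 3′ gene end lay 3 of 27 knockout member peaks (11.1%, interval 2.35 to 29.2), against 33.2% of all knockout peaks with a RefSeq gene span. In the control these were 5 of 23 (21.7%, interval 7.46 to 43.7), against 36.3%. None of them was a Pclo peak, although Pclo gave 12 of the 27 and 11 of the 23, so Pclo lowered both shares. Without Pclo the counts were 3 of 15 in the knockout and 5 of 12 in the control. How far the low shares depend on Pclo was not tested. The nearest Pclo peak lay 4353 nt from the 3′ end. The shared Rims2 site was counted in the control, at 1916 nt, but not in the knockout, at 2006 nt. Peaks of 1 gene share its transcript and are not independent, so these intervals are too narrow to compare the members with other genes. Exon and UTR annotation and a genome sequence were not used here, so the peaks are placed within gene spans and not within coding or untranslated regions. Of the 6 members matched to a RefSeq promoter window, none had a peak that overlapped it.

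Of 75 other genes of regulated exocytosis, 43 had a peak. Among them 5 had a knockout peak alone, which was 15.2% of the 33 with a knockout peak (interval 5.11 to 31.9), against 23.1% over all genes. A control peak alone was found for 10, which was 26.3% of the 38 with a control peak (interval 13.4 to 43.1), against 33.8%. The remaining 28 had peaks in both lists, which was 65.1% of the 43 (interval 49.1 to 79.0), against 55.2% of all genes with a peak. Of the 28, 25 had an overlapping pair, against 86.8% over all genes with peaks in both lists. The exceptions were Stxbp5l, Unc13b and Ptprn. Some genes named here and in the next paragraphs without values complete a count and were added after the values were seen. Values below are those of each gene's strongest peak by q, which need not lie at the same site in the 2 lists. Recurring folds were counted for member peaks only, so folds below may also be recurring values.

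SNAREs and their regulators had 1 gene in the knockout list alone, 4 in the control list alone, 5 in both and 10 without a peak. Stx3 and Stxbp5 were among those in the control list alone, and Vamp2, Vamp8 and Stxbp5l were among those in both. Nsf, the ATPase that takes SNARE complexes apart, had a knockout peak with a fold of 4.26 and a −log10 q of 5.71. Stxbp2, which binds syntaxin, had a control peak with a fold of 3.45 and a −log10 q of 9.31. Cplx2, a complexin that clamps SNARE complexes, had 5 peaks in each list, all overlapping, with a fold of 2.01 and a −log10 q of 43.4 in the knockout and of 2.53 and 46.1 in the control. Napa, an NSF adaptor, had a fold of 3.03 and a −log10 q of 3.55 in the knockout, and of 5.27 and 16.6 in the control. The control-only genes were 44.4% of those with a control peak (interval 13.7 to 78.8), against 33.8% over all genes, and the knockout-only gene was 16.7% of those with a knockout peak (0.421 to 64.1), against 23.1%. Both intervals include the share of all genes.

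The other active zone and priming genes with a peak, 7 of 13, all had peaks in both lists, as Pclo and Rims2 did and Unc13a did not. The share in both lists was thus 100% (interval 59.0 to 100), against 55.2% of all genes with a peak, and this interval lay above it. For 7 genes, the interval of the control-only share was 0 to 41.0%, which includes the 33.8% of all genes. The group is 1 of several role groups described here, and its difference from all genes was not tested. Bsn, the bassoon scaffold related to piccolo, had 7 knockout and 11 control peaks, with a fold of 14.1 and a −log10 q of 10.2 in the knockout and of 6.24 and 13.1 in the control. Rimbp2, a RIM-binding protein, had 1 peak per list, with a −log10 q of 6.82 in the knockout and 22.3 in the control at folds of 2.37 and 2.46. Unc13b, a paralogue of Unc13a, had 2 knockout peaks and 1 control peak that did not overlap.

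Rab proteins and effectors had 3 genes in the knockout list alone and 1 in the control list alone, with 5 in both. These were 37.5% of those with a knockout peak (interval 8.52 to 75.5), against 23.1% over all genes, and 16.7% of those with a control peak (0.421 to 64.1), against 33.8%, and both intervals include the share of all genes. Rab3gap2 was the other knockout-only gene, and Rab3d, Rab3gap1 and Myo5a were among those in both. Rab3c, a close relative of Rab3a, had a knockout peak with a fold of 11.0 and a −log10 q of 4.36, and Sytl2, a relative of Sytl4, had one with a fold of 16.3 and a −log10 q of 3.37. Rab3il1 had a control peak with a fold of 12.6 and a −log10 q of 1.87. Rab27a, which recruits granuphilin, had a fold of 1.82 and a −log10 q of 8.61 in the knockout, and of 3.08 and 34.8 in the control. Exph5, a further Rab27 effector, had 5 knockout and 4 control peaks. The knockout-only calls of Rab3c and Sytl2 lay below the median −log10 q of their list, whereas those of Rph3al and Sytl4 lay above it.

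Among synaptotagmins, Syt13, Syt4 and Syt11 had peaks in both lists and Syt5 had a control peak alone, with a fold of 3.19 and a −log10 q of 7.36. Syt13 had the strongest call of these 75 genes, with a −log10 q of 72.5 in the knockout and 216 in the control at folds of 1.89 and 2.84. Syt4 had −log10 q of 7.39 in the knockout and 24.1 in the control. Syt13 and Syt4 thus had the lower −log10 q in the knockout, and Syt11 had 3.97 in the knockout and 4.22 in the control. The strongest Syt7 site had 14.5 in the knockout and 8.36 in the control. The other shared Syt7 site went the other way, with 3.27 in the knockout and 6.28 in the control.

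Downstream of EPAC2, Rap1b had a fold of 1.62 in the knockout and 1.73 in the control, and Rap1a had a control peak alone with a fold of 1.97. The exocyst, which tethers vesicles to the membrane, had Exoc7 in the knockout list alone, 3 genes (Exoc5, Exoc3 and Exoc1) in the control list alone, and 4 (Exoc8, Exoc6b, Exoc4 and Exoc6) in both. Its control-only share was 42.9% (interval 9.90 to 81.6), against 33.8% over all genes, and Exoc7 was 1 of 5 with a knockout peak (interval 0.505 to 71.6%), against 23.1%. The best −log10 q was 2.63 for Exoc7, 11.7 for Exoc5 and 6.62 for Exoc3. Of the granule and vesicle membrane genes, Ptprn2 had a −log10 q of 16.5 in the knockout and 14.3 in the control, and Sv2a had 22.4 and 18.7 in the same order.

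**Figure D5:**
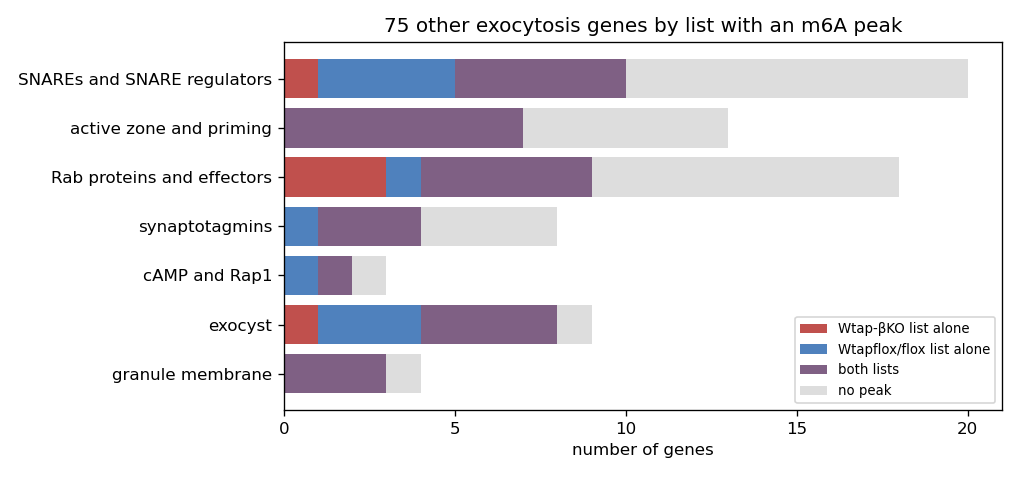
Number of genes (x axis) in each role group of the 75 other exocytosis genes (y axis) with a peak in the Wtap-βKO list alone (red), the Wtapflox/flox list alone (blue), both lists (purple) or neither (grey). The active zone and granule membrane groups have no gene with a peak in 1 list alone, and the SNARE and exocyst groups have 4 and 3 genes in the control list alone.

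The gene most like Pclo in its pair of peak counts was Map2, a neuronal microtubule protein gene, with 12 knockout and 11 control peaks, the same counts as Pclo. Peg3 followed with 12 and 9, and Ash1l, a histone methyltransferase gene, with 9 and 11. The likeness is the sum of absolute differences over 2 lists, which was 0, 2 and 3 in this order, and Zbtb20, Zdbf2 and Zfhx2 tied with Ash1l.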

How the data were processed

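Islet RNA (2 μg per pool) was fragmented to about 100 nt and enriched with an anti-m6A antibody for 2 hours at 4 °C, and read as 150 bp pairs, per the labels' protocols. The submitters' processing notes name fastp 0.19.11, BWA 0.7.12 and GRCm38 (mm10); per the labels, peaks were called with exomePeak 2.16.0 against the input of the same genotype at a q of 0.05. The annotation release is not given in the sources used here. The deposited files give a p-value per peak, score columns with the log10 of p and of q, and a fold, which is a ratio of IP to input in the peak. The genotype of a list was read from its name, whose first word is that of the sample titles.

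Peaks were taken as 0-based starts: start plus 1 met a RefSeq gene start for 10 knockout and 6 control peaks, and the start itself for 1 in each. They are printed 1-based. Peaks overlapped when exon blocks shared 1 bp on the same strand. Distances used RefSeq GRCm38.p6 gene spans. Intervals are Clopper-Pearson at 95% and cover counting error only. The members and gene lists were chosen with earlier results of these data known. All 9 members were named; of other genes, up to 2 per role group and class by lowest q, and the 3 genes nearest Pclo. A gene that this rule names is not reported here. The overlap code made 0 errors in 40000 simulated pairs. Python 3.11.15, pandas 2.3.3 and SciPy 1.17.1 were used.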

Additional observations from a re-analysis of the deposited data

How the results depend on the processing

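Of 56 alternative values for 9 results under 10 settings, 54 stayed within tolerance (1.5 times for counts, the 95% interval for shares). The exceptions came from asking for an overlap of at least 50% of both peaks, under which 33.3% of knockout and 39.1% of control member peaks overlapped; this setting counts fewer pairs by construction, and all 5 members kept an overlapping pair. At a fold of at least 2, Snap25 lost its control peak and 4 members had peaks in both lists. The knockout-only count rose there from 2 to 3, which counted as within tolerance. So did the knockout overlap of 46.7% without Pclo, below the 61.6% of all knockout peaks. Merging overlapping peaks of a list and matching members by Ensembl identifier changed no value. The count of 54 thus says little about how firm the results are. The alternative without peaks over opposite-strand peaks was chosen after seeing the data. No paired analysis was possible because the genotypes had no more than 1 pool, and for the same reason no replicate could be left out. Read depth is unknown and limits weak calls.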
